A study of Mus musculus with 96 samples.

Results

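A 15 Mb stretch of mouse chromosome 4 (chr4:105000001-120000000) was examined as the distant partner of 12 fixed viewpoints near the end of the same chromosome. Members were chosen by position alone: every HindIII fragment of chromosome 4 in the mm9 assembly whose end lay between base 105000001 and base 120000000, which gave 4652 of the 48320 fragments of the chromosome. The interval holds the Skint gene cluster, at chr4:111591997-113917633, and a compact gene-rich block from Slc6a9 to St3gal3, at chr4:117507111-117807519. The data were paired-end 4C sequencing (PE-4Cseq) read counts, in which one read identifies the allele of the viewpoint through a strain polymorphism and its mate identifies the HindIII fragment that had been ligated to it. The cells were mouse embryonic fibroblasts (MEFs), each line made from 1 mid-gestation F1 embryo. The strains were C57BL/6J and 129S5SvEvBrd. Lines 129S5E71 and 129S5E98 (E71 and E98 from here on) carried a deletion on the 129S5-derived chromosome 4 (Df) and an intact C57BL/6J homologue (+DBl6). Control lines 129S5E117 and 129S5E118 (E117 and E118) carried intact 129S5 (+129) and C57BL/6J (+Bl6) chromosomes. Viewpoints 1 and 2 (147.9 and 148.9 Mb) lay upstream of the deletion, viewpoints 3 to 10 (150.4 to 153.9 Mb) lay inside it and viewpoints 11 and 12 (154.9 and 155.5 Mb) lay downstream. Df was therefore described at viewpoints 1, 2, 11 and 12 only. Every viewpoint, allele and genotype had at most 2 lines, so p-values rest on few lines. The number of lines also sets the smallest p that the exact tests can give.

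In 4C, a viewpoint far from its partner samples contacts sparsely, and the contacts it does make tend to follow the large-scale division of chromatin into gene-dense, active and gene-poor, inactive compartments. Skint genes encode butyrophilin-like membrane proteins of skin and thymic epithelium, and Skint1 is known for its part in the selection of dendritic epidermal T cells. They are related in sequence and lie in a gene-poor, repeat-rich setting. Slc6a9 encodes a glycine transporter and St3gal3 a sialyltransferase, and several broadly expressed genes lie between them.

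The fragments captured in the most control libraries are shown first, because they are the places where the viewpoints met this stretch most often. A fragment was called captured when at least 1 read fell on it. Each line gives 60 bases of the reference (NCBIM37, the same assembly as mm9) starting at a HindIII end of the fragment and read towards its inside, with the HindIII site in capitals.

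Tmem125 fragment, chr4:118203640-118203699, plus strand: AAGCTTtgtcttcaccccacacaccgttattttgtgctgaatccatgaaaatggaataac
Hivep3 fragment, chr4:119648310-119648369, plus strand: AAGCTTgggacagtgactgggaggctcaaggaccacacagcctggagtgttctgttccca
Mknk1 fragment, chr4:115524302-115524361, plus strand: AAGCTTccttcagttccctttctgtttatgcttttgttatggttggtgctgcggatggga
Rnf220 fragment, chr4:117098565-117098624, minus strand: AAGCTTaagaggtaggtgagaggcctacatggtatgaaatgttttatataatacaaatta
intergenic fragment, chr4:117215822-117215881, plus strand: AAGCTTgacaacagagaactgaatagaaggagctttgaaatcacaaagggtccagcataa

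The Tmem125 fragment overlaps exon and intron sequence of this transmembrane protein gene and spans 21724 bases. It was captured in 28 of 44 control libraries. All control libraries came from lines E117 and E118. The +129 and +Bl6 libraries of a line come from the same cells, so the libraries are not independent. The Hivep3 fragment, inside an intron of this zinc finger gene, was also captured in 28 of 44. The fragment at Mknk1 (a kinase that phosphorylates a translation initiation factor), the intronic fragment of Rnf220 (a ubiquitin ligase) and the fragment outside any annotated gene were captured in 27 of 44 each. The median fragment of the whole stretch was captured in 6 of 44 libraries.

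The 3 fragments of the Skint cluster captured most often are shown in the same way, because the contrast below turns on how seldom such fragments were met.

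Skint5 fragment, chr4:113357277-113357336, plus strand: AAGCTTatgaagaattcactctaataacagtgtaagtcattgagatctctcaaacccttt
intergenic cluster fragment A, chr4:113017491-113017550, minus strand: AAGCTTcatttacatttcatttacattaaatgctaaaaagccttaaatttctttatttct
intergenic cluster fragment B, chr4:112284384-112284443, minus strand: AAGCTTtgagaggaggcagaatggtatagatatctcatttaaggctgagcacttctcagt

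They were captured in 16, 13 and 12 of 44 control libraries, and the median fragment of the cluster in 1 of 44. Related sequence within the cluster limits what a read of 30 bases can identify there. Of the 1494 fragment ends of the cluster, 738 (49.4%) had another end in the cluster within 3 mismatches over their first 30 bases, and 248 had an identical one. One such pair lies in Skint8 and Skint9, with the single differing position in capitals.

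Skint8 end, chr4:111604165-111604194, minus strand: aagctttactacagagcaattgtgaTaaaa
Skint9 end, chr4:112095670-112095699, minus strand: aagctttactacagagcaattgtgaGaaaa

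The Skint8 fragment with this end was captured in 0 of 72 libraries and the Skint9 fragment in 1 of 72. If the libraries were independent, a count of 0 would allow up to 3 captures. An end was called unique when no other HindIII end of the genome lay within 3 mismatches. At least 1 unique end was present in 51.5% of the 747 cluster fragments, in 84.5% of all fragments of the stretch and in 97.1% of the 70 fragments of the Slc6a9 to St3gal3 block. Fragments with no unique end were never captured in 49.2% of cases in the cluster and 49.9% over the whole stretch. The main contrasts with the cluster are therefore given again below over unique fragments. Values per Skint gene are given over all fragments only.

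The usable libraries, 78 of 96, held 64058 to 3969613 reads on chromosome 4. In 6 replicate pairs the reads at fragments over 5 Mb from the viewpoint correlated above 0.9 between lines (+DBl6 at viewpoints 4, 6, 7 and 8, and both control chromosomes at viewpoint 9), and each pair was counted as 1 library, which left 72. Both E117 libraries at viewpoint 10 fell under 10000 reads and were left out. The Df libraries at viewpoints 3 to 10, which lie in the sequence Df lacks, were left out too. Reads were also partly shared across genotypes at viewpoint 11, where +DBl6 E71 and +Bl6 E117 correlated at 0.72 and Df E71 and +129 E117 at 0.69 over the fragments captured in both, and at viewpoint 10, where +DBl6 E98 and +Bl6 E118 correlated at 0.58. Reads carry no molecular identifiers, so intervals on single libraries cover counting error only.

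The capture rate, the percentage of fragments captured, was divided by the same library's rate over a reference interval that includes the stretch, chr4:3000001-143000000, to give a relative capture rate. It was above 1 for the stretch in every usable library. For all fragments of the stretch it was 1.45 at the lowest, 1.84 at the median and 2.17 at the highest of 78 libraries. In counts, 110 to 1243 of the 4652 fragments were captured per library.

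In steps of 500 kb, 2 gene-dense plateaus flanked a trough. Over the 44 control libraries the relative capture rate was highest in the window chr4:117500001-118000000 (3.46 ± 1.38, SD), which holds the block and the genes Kdm4a (a histone demethylase) and Ptprf (a receptor tyrosine phosphatase). The next were chr4:118000001-118500000 (3.18) and chr4:119500001-120000000 (3.02). The lowest were chr4:112500001-113000000 (0.45), chr4:113000001-113500000 (0.48) and chr4:112000001-112500000 (0.63), all within the Skint cluster. The other windows that touch the cluster, chr4:111500001-112000000 and chr4:113500001-114000000, stood at 0.82 and 0.65. E117 stood at 3.38 and E118 at 3.51 in the highest window, and at 0.38 and 0.51 in the lowest. The control lines differed more at chr4:113000001-113500000, the lowest window of E117, with 0.33 in E117 and 0.61 in E118. From 106 to 109 Mb the rate lay between 1.56 and 2.10 and from 115.5 to 120 Mb between 2.53 and 3.46. Among unique fragments only, the lowest cluster window was at 0.55 and the highest window of the stretch at 3.12.

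**Figure D1:**
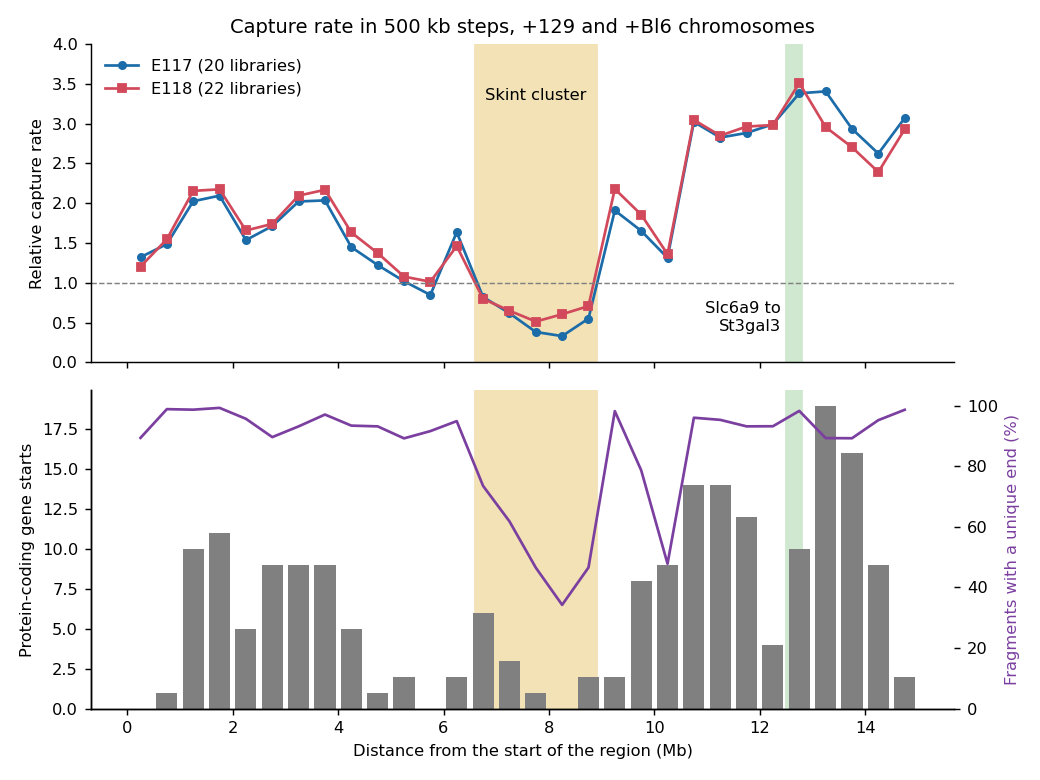
Relative capture rate (top; mean over libraries of each control line, 1 marks the library's own rate over the reference interval) and number of protein-coding gene starts with the percentage of fragments that have a unique end (bottom), in 500 kb steps. The 5 windows that touch the Skint cluster (yellow) lie below 1 in both lines, and the window that holds the Slc6a9 to St3gal3 block (green) stands at 3.38 in E117 and 3.51 in E118.

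Read density was also low in the cluster and high around the block. In the chr4:117500001-118000000 window the control libraries held a median of 2677 RPM (reads in the window, scaled to a common total of reads outside the viewpoint zone), and in the chr4:112500001-113000000 window a median of 58.3. The highest median, 3909 RPM, was in the window chr4:118000001-118500000, which includes an olfactory receptor cluster as well as Tie1 (an endothelial receptor kinase) and Cdc20. The top fragment held 0.715% to 13.8% of the reads of the stretch, with a median of 2.47% over 78 libraries. Across the 30 windows the mean relative capture rate in control libraries correlated with the number of protein-coding gene starts (Spearman rho 0.72) and with GC content (rho 0.81). The windows share libraries and these properties vary together, so both are descriptions.

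The Skint cluster was captured less often per fragment than the 13 windows with the most gene starts, with a ratio of 0.124 in E71 and in E98, 0.139 in E117 and 0.236 in E118. As mean rates over the libraries outside shared pairs, 1.48% of cluster fragments and 12.0% of gene-dense fragments were captured per library in E71, 2.92% and 23.6% in E98, 2.30% and 16.6% in E117, and 5.84% and 24.7% in E118. These values pool different viewpoints, since the shared +DBl6 pairs take viewpoints 4, 6, 7 and 8 out of E71 and E98. At viewpoints 1, 2, 11 and 12 alone the order of the lines differed, with ratios of 0.099 in E71, 0.083 in E98, 0.071 in E117 and 0.081 in E118. The cluster was lower in 4 of 4 lines in both sets. Over all viewpoints the mean log2 ratio was -2.74 ± 0.45 (SD, n = 4 lines), a ratio of 0.150, with p = 0.125 in a two-sided exact sign-flip test, the smallest p that 4 lines allow. Over unique fragments the log2 ratio was -2.32, and against the sequence within 2.5 Mb on either side it was -2.001. GC content, 37.5% in the cluster and 45.3% in the gene-dense windows, also differed, and its part in the ratio was not tested.

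The Slc6a9 to St3gal3 block was captured 2.10 times as often as the whole stretch. Per library, 15.95% of its fragments were captured in E71 against 8.15% of all fragments of the stretch, 35.6% against 15.9% in E98, 26% against 11.7% in E117, and 36.5% against 18.3% in E118. The block was higher in 4 of 4 lines (mean log2 ratio 1.07 ± 0.10, SD, p = 0.125 in the two-sided exact sign-flip test). Its fragments were longer (median 2484 bases against 2187), and per kilobase the log2 ratio was 0.63. The ratio of block to stretch also depended on the viewpoint. It was 1.34 to 3.33 in 32 libraries at viewpoints 1, 2, 11 and 12 (median 2.19). At viewpoints 6, 7 and 8 it was 0.239 to 2.42 in 15 libraries (median 1.09), so the block was not higher in every library there.

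The contrast between the cluster and the gene-dense windows depended on the viewpoint. From viewpoints 1, 2, 11 and 12, outside the deleted interval, the capture rate of the cluster was 0.018 to 0.223 times that of the gene-dense windows in 32 libraries, with a median of 0.060. From viewpoints 6, 7 and 8 (152.1, 152.4 and 152.9 Mb), in the middle of the interval that Df lacks, it was 0.409 to 1.15 times in 15 libraries, with a median of 0.763. These sets did not overlap. Viewpoints 3 to 5 (median 0.134, 17 libraries) and viewpoints 9 and 10 (median 0.255, 8 libraries) had medians between these. Over unique fragments the mean ratio was 1.03, 1.12 and 1.05 at viewpoints 6, 7 and 8 (5 libraries each). The cluster was therefore not lower there on average. On +129 these means were 0.76, 0.79 and 0.72, and on +Bl6 1.23, 1.32 and 1.11 (2 libraries each). Viewpoints 6 to 8 were grouped after their values were seen, and no test was made.

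**Figure D2:**
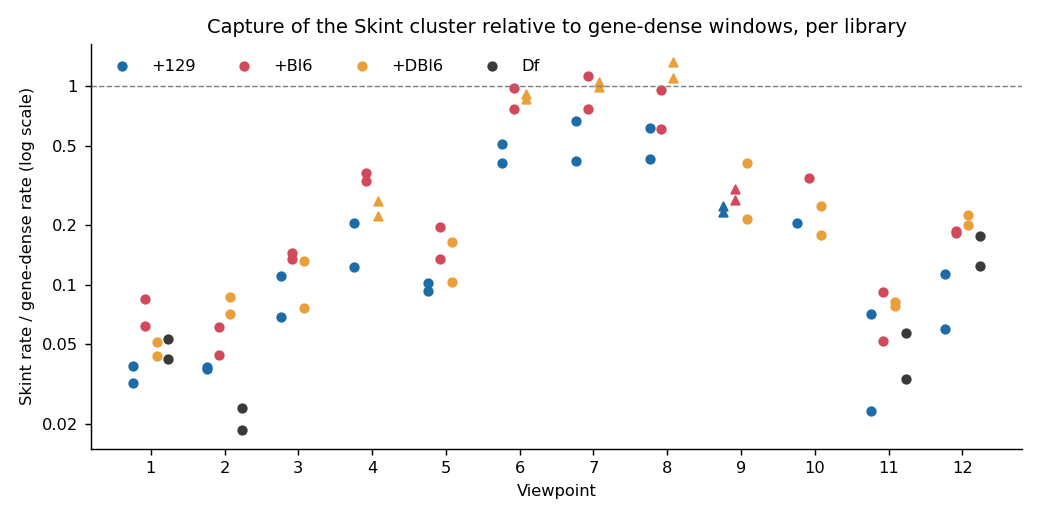
Capture rate of the Skint cluster divided by that of the gene-dense windows (log scale) in each usable library, by viewpoint. Colours give the chromosome and triangles mark lines of a shared replicate pair, drawn separately. The lowest library at viewpoints 6, 7 and 8 is at 0.409 and the highest elsewhere, +DBl6 E98 at viewpoint 9, at 0.408.

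The counts behind these ratios show the change in both terms. At viewpoint 1, the cluster gave 7 captured fragments of 747 on +129 E117, 9 on +129 E118, 16 on +Bl6 E117 and 18 on +Bl6 E118, where the gene-dense windows gave 453, 712, 479 and 731 of 1884. At viewpoint 7 the cluster gave 12, 76, 27 and 132 in the same order, where the gene-dense windows gave 72, 289, 89 and 297. At both viewpoints the counts on +Bl6 were the higher of each line, and at viewpoint 7 the E117 libraries were shallower (96371 and 116199 reads outside the viewpoint zone) than the E118 libraries (1166734 and 1267893). In the control lines the ratio was 8.11-fold higher at viewpoints 6 to 8 than at viewpoints 1, 2, 11 and 12 in E117 and 9.95-fold higher in E118. Over unique fragments it was 9.15-fold and 9.94-fold higher. The rate over the reference interval was lower at viewpoints 6 to 8 (median 3.88% in 18 libraries, shared pairs taken separately) than at the outer viewpoints (median 6.42%, 32 libraries), and its part in the ratio was not tested. With reads per fragment in place of capture, the ratio differed 10.9-fold in E117 and 16.3-fold in E118.

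The change was not limited to the cluster. From 106 to 109 Mb, control libraries at the outer viewpoints had relative capture rates of 2.38 to 3.50 per window, and at viewpoints 6 to 8 of 0.38 to 0.65. From 109.5 to 111.0 Mb, where Elavl4 and most of Agbl4 lie, the values were 0.48 to 0.93 at the outer viewpoints and 1.49 to 1.90 at viewpoints 6 to 8. The windows from 114.0 to 115.5 Mb, with the Cyp4 genes, went from between 0.74 and 1.37 to between 2.27 and 2.74. The block's window was at 4.50 from the outer viewpoints and at 1.87 from viewpoints 6 to 8, while its neighbour chr4:118000001-118500000 was at 2.11 and 4.69. Across the 30 windows the rank correlation of capture with gene starts was 0.56 to 0.69 at viewpoints 1, 2, 11 and 12 and 0.06 to 0.13 at viewpoints 6, 7 and 8, as descriptions over windows that share libraries.

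**Figure D3:**
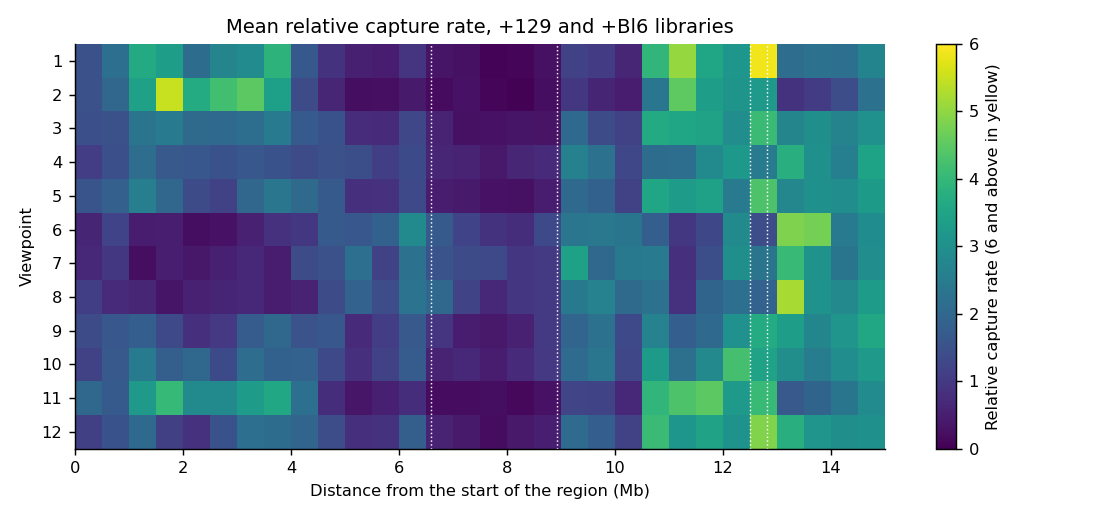
Mean relative capture rate of the control libraries in each 500 kb window (columns) from each viewpoint (rows), with dotted lines at the edges of the Skint cluster and of the Slc6a9 to St3gal3 block. The horizontal axis is the distance in Mb from base 105000001, and colours at 6 and above are the same yellow. In the window chr4:106500001-107000000 the mean is 3.50 over viewpoints 1, 2, 11 and 12 and 0.46 over viewpoints 6 to 8, and in the window chr4:111500001-112000000, at the start of the cluster, it is 0.32 and 1.75.

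Among the Skint genes, relative capture rates per gene ran from 0.45 for Skint6 to 1.49 for Skint8, and 9 of 11 were below 1. Of all 195 protein-coding genes that overlap the stretch, 21 were below 1 and the median was 2.27. Skint8 and Skint7, at the outer edge of the cluster next to Slc5a9 (a sodium and glucose cotransporter), were the 2 members above 1, and they have a unique end in 6 of 7 and 16 of 17 fragments. The annotated spans of these 2 genes overlap, so they share fragments and are not separate observations. Skint1 stood at 0.79, with unique ends in 6 of 6 fragments. Skint6 and Skint5, the 2 largest members at 482 and 522 kb, stood at 0.45 and 0.56 and have a unique end in 67 of 149 and 77 of 175 fragments. All 11 members had a higher relative capture rate at viewpoints 6 to 8 than at the outer viewpoints, as did 69 of the 195 genes. For the family as a whole the values were 1.16 and 0.20.

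The Cyp4 genes, which encode fatty acid hydroxylases, are another tandem family of the stretch, besides the olfactory receptor cluster named above. Of their fragments, 46.5% have a unique end. The family stood at 1.29 in control libraries, with 4 of 8 members above 1, from 0.38 for Cyp4a12a to 2.75 for Cyp4x1. All 8 were higher at viewpoints 6 to 8 (2.74 for the family) than at the outer viewpoints (0.46).

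All 8 genes of the Slc6a9 to St3gal3 block were above 1, as were 174 of the 195 genes, and ranged from 3.16 for Ccdc24 (a coiled-coil protein) to 5.87 for Artn (a ligand of the GDNF family). Slc6a9 stood at 4.26, B4galt2 (a galactosyltransferase) at 4.32, Atp6v0b (a vacuolar proton pump subunit) at 3.39, Dph2 (diphthamide synthesis) at 4.99, Ipo13 (a nuclear transport receptor) at 4.66 and St3gal3, the longest at 203 kb and 50 fragments, at 3.22. Several of the short genes rest on 1 to 3 fragments, and Ccdc24 overlaps Slc6a9 and B4galt2, so fragments are shared between genes. All 8 were lower at viewpoints 6 to 8 than at the outer viewpoints, as were 124 of the 195 genes, and for the block's genes together the values were 1.80 and 4.62.

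Of 8 DNA repair and cell cycle genes, a list compiled by hand, 7 were lower at viewpoints 6 to 8 than at the outer viewpoints, where 124 of all 195 genes were. All 8 were above 1 over the control libraries, as were 174 of the 195, and their fragments together stood at 3.92 from the outer viewpoints and 0.93 from viewpoints 6 to 8. Rad54l, a recombination factor, went from 4.02 to 0.61, Orc1, of the origin recognition complex, from 3.23 to 0.49, and Kif2c, a mitotic kinesin, from 5.72 to 0.48. Mutyh, a DNA glycosylase, was close at both, 5.34 and 5.26, and Cdc20 (an activator of the anaphase-promoting complex) was the member with a higher value at viewpoints 6 to 8. The Stil-Tal1 locus, with a centriole duplication factor and a haematopoietic transcription factor, stood at 1.99 and 2.02. The long genes Faf1, Elavl4 and Agbl4 stood at 1.46, 1.21 and 1.16, and Agbl4, which spans 1267 kb and 407 fragments, went from 0.64 to 1.91. Among the genes of the other highest windows, Edn2 (endothelin 2) stood at 6.36, on 1 fragment, and Foxo6 (a forkhead transcription factor) at 3.56, on 8, in the window chr4:119500001-120000000. In the window chr4:118000001-118500000, Tmem125 stood at 10.4, on 1 fragment, and Tie1 went from 1.497 at the outer viewpoints to 7.16 at viewpoints 6 to 8.

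The Skint cluster also differed between alleles of the same cells. Each usable control line and viewpoint gives 1 pair of +129 and +Bl6 libraries. Outside viewpoint 9, where the 2 lines were counted as 1 library, the cluster had fewer captured fragments on +129 in 21 of 21 pairs (464 against 840 in all). Over unique fragments of the cluster, +129 had fewer in 18 pairs, as many in 1 and more in 2 (373 against 620). Outside the cluster, the rest of the stretch was lower on +129 in 13 of 21 pairs (13941 against 14361), and the gene-dense windows in 16 of 21 (8105 against 8397). At viewpoint 9 the cluster gave 47 on +129 and 59 on +Bl6 in E117, and 45 and 48 in E118. In the deletion lines, the cluster was lower on Df than on +DBl6 in 6 of 8 pairs, equal in 1 and higher in 1 (72 against 110). Over unique fragments it was lower in 7 and higher in 1 (55 against 77). Scaled to the captures of the same libraries in the reference interval, over the viewpoints without a shared pair, the 129S5-derived chromosome gave 0.72 times the captures of its homologue in E71, 0.64 in E98, 0.53 in E117 and 0.59 in E118, with a mean log2 ratio of -0.70 ± 0.19 (SD, n = 4 lines). The same ratio for the rest of the stretch was 0.98, 0.99, 1.00 and 1.01, and for the block 1.05, 1.06, 1.00 and 0.99. This comparison was made after the pattern had been seen, and the 4 ratios are descriptions.

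**Figure D4:**
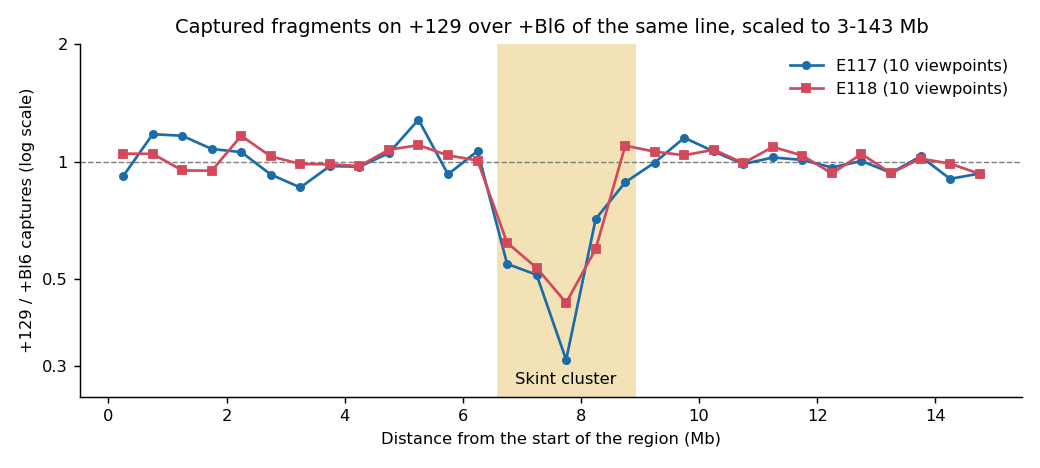
Captured fragments on +129 divided by those on +Bl6 of the same line, each scaled to its captures in the reference interval (log scale), in 500 kb steps over 10 viewpoints. The 4 windows from 111.5 to 113.5 Mb lie between 0.31 and 0.71 in both lines, and the other 26 between 0.86 and 1.28.

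The low ratios lay in 4 consecutive windows. From 111.5 to 113.5 Mb the ratio of +129 to +Bl6 was 0.31 to 0.71 in E117 and 0.44 to 0.62 in E118, lowest at chr4:112500001-113000000 in both, and in the other 26 windows it was 0.86 to 1.28 and 0.93 to 1.16. The last window that touches the cluster, chr4:113500001-114000000, was at 0.88 and 1.10. Reads had been aligned to the C57BL/6J reference with up to 3 mismatches, so alignment can differ between the strains, and its part was not tested. Over cluster fragments with a unique end the ratio was 0.53 in E117, 0.66 in E118, 0.59 in E71 and 0.81 in E98. The window chr4:115000001-115500000, with the Cyp4a genes, has a unique end in 47.8% of its fragments, close to the 46.5% at chr4:112500001-113000000, and its ratio was 1.06 in E117 and 1.07 in E118. End uniqueness was measured on the reference alone and does not describe the 129S5 sequence of either window. Of the cluster fragments, 226 were captured on both alleles in at least 1 of 22 libraries each, 197 on +Bl6 alone and 39 on +129 alone. Among cluster fragments with a unique end these counts were 170, 113 and 22, and in the rest of the stretch 3135, 181 and 188. Among fragments captured in at least 5 of the 44 control libraries, 4 of 99 in the cluster and 6 of 2606 in the rest of the stretch were never captured on +129, and 0 and 5 were never captured on +Bl6. Of such cluster fragments with a unique end, 2 of 83 were never captured on +129 and 0 on +Bl6. One of the 6 outside the cluster is an Rnf11 fragment with both ends unique, captured on +Bl6 in 6 libraries. As examples chosen after their values were seen, 2 cluster fragments with both ends unique are shown, with the HindIII site in capitals. They were captured on +Bl6 in 6 and 5 of 22 libraries and on +129 in 0 of 22.

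Skint6 fragment, chr4:112480236-112480295, plus strand: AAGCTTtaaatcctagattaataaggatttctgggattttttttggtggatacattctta
Skint4 fragment, chr4:111809568-111809627, plus strand: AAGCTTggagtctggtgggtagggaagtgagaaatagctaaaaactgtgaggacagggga

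Reads per 500 kb window were compared by edgeR's quasi-likelihood test, adjusted by the Benjamini-Hochberg method over all windows of chromosome 4. Between +129 and +Bl6, 0 of 294 window tests of the stretch passed an adjusted p of 0.05, where 0.0346% of the 2889 tests of the chromosome did. At an unadjusted p of 0.05 the counts were 18 of 294 and 4.53%. After adjustment DESeq2 called 5 of the 294 tests of the stretch, 3 of them in the cluster, and 22 of the 2889 of the chromosome. The smallest p was at viewpoint 7 in chr4:112500001-113000000. There +129 had 2 reads in E117 and 62 in E118, and +Bl6 had 319 and 2107. Both +129 libraries were below both +Bl6 libraries (log2 fold change -5.89 ± 1.51, SE, adjusted p = 0.16 by edgeR). In the 4 windows from 111.5 to 113.5 Mb, which were singled out for their low capture ratio in these same libraries, the median log2 fold change was -1.65 over 34 tests, given as a description.

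Df and +129 came from different MEF lines, so genotype and line cannot be told apart. They were compared first by the share of all reads outside the viewpoint zone. That total includes the interval that +129 carries and Df lacks, so the denominators are not alike. The deletion also places viewpoints 11 and 12 nearer to the stretch on Df. The part of either in the differences was not tested. At viewpoint 1, the stretch took 9.49% of reads on Df E71 (95% Wilson interval 9.18 to 9.79) and 8.80% on Df E98, against 10.5% on +129 E117 and 8.92% on +129 E118. The genotypes were not separated there. At viewpoint 2 the shares were 3.03% and 2.51% on Df and 3.79% and 2.64% on +129. At viewpoint 11 they were 3.97% and 3.65% against 4.12% and 4.18%, where Df was below +129 in both lines, and at viewpoint 12 they were 8.36% and 7.23% against 7.42% and 7.23%. Over the 4 viewpoints the mean difference was -0.079 on the log2 scale, with p = 0.667 in a two-sided exact permutation test of 2 lines against 2, where the smallest possible p is 0.333. Its sign turned, to 0.063, when reads of the reference interval, which lies outside the deletion, were the denominator.

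**Figure D5:**
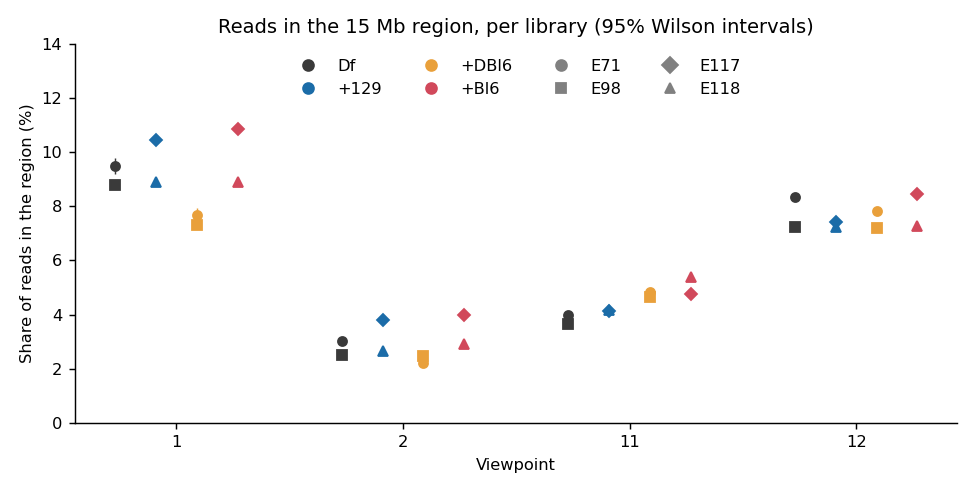
Share of reads outside the viewpoint zone that fell in the 15 Mb stretch (percent), in each library at the viewpoints present on all 4 chromosomes. Colours give the chromosome, symbols the line and bars the 95% Wilson interval, mostly smaller than the symbols. At viewpoints 1 and 2 both +DBl6 libraries lie below both +Bl6 libraries, and the Df and +129 libraries overlap.

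On the intact homologue the share was lower in the deletion lines. At viewpoint 1, +DBl6 stood at 7.68% in E71 and 7.32% in E98, and +Bl6 at 10.8% in E117 and 8.90% in E118. At viewpoint 2, +DBl6 stood at 2.20% and 2.47%, and +Bl6 at 3.97% and 2.90%. Both +DBl6 libraries were below both +Bl6 libraries at viewpoints 1, 2, 3 and 5, and the groups overlapped at viewpoints 11 and 12. The mean difference over these 6 viewpoints was -0.26 on the log2 scale, with p = 0.333, the smallest this two-sided exact permutation test allows. Within the purification batches it was -0.31 (E71 with E117) and -0.21 (E98 with E118). With reads of the reference interval as the denominator the difference was -0.012, with p = 1 in the same exact test.

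No window of the stretch passed the test between Df and +129. In the edgeR test 0 of 110 window tests of the stretch passed, where 1.72% of the 1102 tests of chromosome 4 did. At an unadjusted p of 0.05 there were 4 of 110, against 6.08% over the chromosome. After adjustment DESeq2 called 0 in the stretch and 29 over the chromosome. The smallest p was at viewpoint 12 in chr4:117000001-117500000, where the starts of Rnf220, Eri3, Dmap1 and Klf17 lie. Df held 5587 RPM in E71 and 6476 in E98, and +129 held 3148 in E117 and 3348 in E118. Both Df libraries were above both +129 libraries (log2 fold change 0.84 ± 0.27, SE, adjusted p = 0.653 by edgeR). Captured fragments, not scaled, numbered 32 and 37 of 161 on Df and 45 and 45 on +129. The capture rates of these libraries over the reference interval were 5.76% and 8.78% on Df and 8.71% and 10.4% on +129. With captured fragments in the scaled edgeR fit the log2 fold change was -0.027, so the libraries were not separated in the opposite direction.

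For +DBl6 against +Bl6, 1 of 349 window tests passed in the stretch (0.287%), where 0.277% of the 3252 tests of the chromosome did. It lay at viewpoint 1 in chr4:110000001-110500000, in the Agbl4 interval, with a log2 fold change of 4.37 ± 0.98 (SE, adjusted p = 0.0119 by edgeR). The window held 227 reads on +DBl6 E71 and 43 on +DBl6 E98, and 26 on +Bl6 E117 and 136 on +Bl6 E118. A single fragment held 99.1% of the +DBl6 E71 reads. The +DBl6 E71 library stood at 5485 RPM, apart from the other 3 libraries at 72.5 to 229.9. With the purification batch as a block the log2 fold change was 2.33 and the call was lost (adjusted p = 0.9997 by edgeR). The call was also lost without E117 (3.95) or E118 (4.96). Without E71 the log2 fold change was -0.91, and with captured fragments in place of reads it was 0.061 (2 and 9 captured on +DBl6, 5 and 10 on +Bl6). At an unadjusted p of 0.05 there were 14 of 349 in the stretch, against 6.4% over the chromosome.

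Within the cluster, Df and +129 overlapped at 3 of the 4 viewpoints. At viewpoint 1, Df had 3 cluster fragments captured in E71 and 15 in E98, and the +129 counts of 7 and 9 lay between them. At viewpoint 11, Df had 3 and 9 and +129 had 3 and 17. At viewpoint 12, Df had 19 and 20, within the +129 counts of 10 and 24. At viewpoint 2 both Df libraries, with 1 and 2, were below both +129 libraries, with 4 and 5. There 149 and 392 fragments of the whole stretch were captured on Df and 422 and 477 on +129. The ratio of cluster to gene-dense rate was 0.018 to 0.024 on Df and 0.038 on both +129 libraries. These counts are small, and no test was made of them.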

How the data were processed

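The authors made PE-4Cseq libraries by HindIII and DpnII digestion, assigned the viewpoint allele from a polymorphism in the first read, trimmed the second read to 30 bases and aligned it with Bowtie, with up to 3 mismatches and unique placement, to the sequences bordering HindIII sites of mm9. The deposited values are raw counts, one per fragment end along chromosome 4, and were used unchanged. Their tables of differentially interacting regions hold the authors' own calls and were not used. PCR products of E71 and E117 were purified on columns and those of E98 and E118 on beads. No identifier marks single molecules, so PCR duplicates enter the counts.

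Fragments within 20 kb of the viewpoint were left out of library totals. Ends were matched to all HindIII ends of the genome with bwa 0.7.19. Windows of 500 kb were kept where 50% or more of the libraries held 10 reads, and tested with edgeR 4.0.16 (R 4.3.3, TMM), per viewpoint, with the Benjamini-Hochberg adjustment over chromosome 4. DESeq2 1.42.0, other filters, window sizes and blocks were alternatives. Shared replicate pairs were summed to 1 library, which leaves no spread between lines on that side of a comparison, and libraries under 10000 reads were left out. The scripts were tested on simulated data. +129 and +Bl6 libraries of the same number come from the same MEF line, which pairs them. The main edgeR fit did not use this pairing, and the MEF line as a block was an alternative. Windows were named by rank of relative capture (3 highest, 3 lowest), by overlap with the cluster or block, and by smallest p. Fragments were named by number of control libraries (5, and 3 in the cluster) and genes by lists. The region, lists and comparisons were chosen with earlier results of these data known.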

Additional observations from a re-analysis of the deposited data

Results flagged for a closer look

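The ratio of captures on the 129S5-derived chromosome to those on its homologue over the span of the Cyp4 genes set line E71 apart from the other lines. Its log2 ratio was 1.25, against 0.08 in E98, 0.21 in E117 and 0.12 in E118. It rests on 14 captured fragments on Df and 6 on +DBl6 at viewpoints 1, 2, 11 and 12. Of 7 sets of 4 lines examined for a line far from the rest it was the 1 that passed the limit, and chance flags about 1 in 20.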

How the results depend on the processing

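The contrast of the Skint cluster with gene-dense windows (log2 ratio -2.74) kept its sign under all alternatives run, from -3.59 at viewpoints 1, 2, 11 and 12 alone to -0.55 at viewpoints 6 to 8 alone (both chosen after seeing the data), with -3.35 by reads per fragment, and from -2.96 to -2.65 without 1 line. These alternatives did not combine viewpoints 6 to 8 with unique fragments, where the mean ratio per viewpoint was 1.03 to 1.12. The block contrast (1.07) ran from 0.63 to 1.5, and from 1.04 to 1.11 without 1 line. The Df share difference (-0.079) became 0.063 with reads of the reference interval as denominator and ran from -0.175 to 0.018 without 1 line, turning sign without E98 (0.010) or E117 (0.018). The +DBl6 share difference ran from -0.32 to -0.21 without 1 line. For Df against +129, captured fragments called 1 of 108 window tests of the stretch and 14 of 1073 over chromosome 4. The 1 in the stretch was at viewpoint 2 from 105.5 to 106.0 Mb. At viewpoint 12 in chr4:117000001-117500000 the log2 fold change was -0.027 with captured fragments. For +DBl6 against +Bl6, 0 windows of the stretch were called without TMM, with captured fragments, with 1 Mb windows and with the purification batch as a block. Over chromosome 4 these settings called 4, 8, 3 and 4. DESeq2 called 8 of 349 tests in the stretch and 135 of 3252 over chromosome 4. Its called window had a log2 fold change of -0.91 without E71 and of 5.42 without E98, the range without 1 line. For +129 against +Bl6, DESeq2 called 5 of 294 (22 of 2889 over chromosome 4) and 1 Mb windows 2 of 150 (5 of 1513). All libraries as labelled called 36 of 353 (375 of 3452 over chromosome 4). Most of these 36 lay at viewpoint 9, with its shared pairs, and at viewpoint 10, with its E117 libraries under 10000 reads. With the MEF line as a replicate block 0 windows of the stretch were called, as without it. Leaving out 1 control line left no residual degrees of freedom in this comparison and was not run. The allele ratio in the cluster (-0.70) was -1.12 with at least 5 reads, -1.14 with reads capped at 100 and -0.77 to -0.63 without 1 line. The difference between viewpoints 6 to 8 and the outer viewpoints (3.17) was 3.48 with at least 5 reads, 3.73 with reads per fragment and 2.00 against the sequence within 2.5 Mb, and 3.02 to 3.31 with 1 line. The allele and viewpoint contrasts and their alternatives were chosen after seeing the data. Over 12 results, 86 alternatives were labelled the same, 20 moved, 5 turned sign, 5 lost the call of a window and 2 gained it. For the tested contrasts and shares, the same meant an unchanged sign, whatever the change in size. The +DBl6 share difference of -0.012, with reads of the reference interval as denominator, therefore counts as the same. For the allele and viewpoint contrasts it meant a change below the SD over lines. For windows it meant an equal or similar count of calls, or an unchanged call. Where a result changed, the cause was not tested. The cluster values rest on 1 to 132 captured fragments per library, which limits their precision.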
